A study of Mus musculus with 15 samples.

Results

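The cytosolic ribosomal protein genes are the mouse genes for the proteins of the cytoplasmic ribosome. They were chosen by name: a gene is a member if a probe set lists it alone and its symbol is Rpl or Rps followed by a number, Rplp0, Rplp1, Rplp2 or Rpsa, with the Rps6 kinases and pseudogenes left out. The rule used no measured value to choose genes and gave 35 members of 8251 genes represented. Of these, 17 belong to the large subunit and 18 to the small subunit, counting the paralogs Rpl7l1, Rpl39l, Rps4l and Rps27l. The members have 49 probe sets, and 10 members have more than 1. Of several probe sets, the one whose log2 signal was highest on average stands for the gene. A further 39 probe sets list a ribosomal protein gene together with other genes. They hold 34 ribosomal protein symbols, 33 of which are not members, so the set covers only part of the ribosome. These shared probe sets are described as a group and not by gene.

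RNA of RAW 264.7 cells, a mouse macrophage-like line, was measured on 15 Affymetrix arrays with 1 RNA sample on each. Growth medium for all cells was alpha-MEM with serum. On days 0 and 3 they received serum-free medium with RANKL (the cytokine that drives macrophage precursors to become bone-resorbing osteoclasts) or without it. The 8 control arrays comprise 2 each from days 2, 3 and 4 and a single one from day 1 and from day 5. The 7 RANKL arrays comprise 2 each from days 2, 4 and 5 and a single one from day 1. By their labels the RANKL cells of days 4 and 5 were multi-nuclear and all other cells mononuclear. The RANKL dose and the origin of replicates (separate cultures or not) are not in the labels, so the p-values measure the spread between these samples, which may be technical.

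A cytoplasmic ribosome has a small subunit, which binds the mRNA and reads its codons, and a large subunit, which joins the amino acids. Each subunit is built in the nucleolus from ribosomal RNA and ribosomal proteins, and cells make the proteins in near-equal amounts. Many of the mRNAs begin with a run of pyrimidines, the terminal oligopyrimidine tract, through which mTOR signalling controls their translation. Macrophages and osteoclasts translate large amounts of secreted and lysosomal proteins, and RANKL signalling in osteoclast precursors engages mTOR.

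A run of pyrimidines lies at or near the annotated start in some members and not in others, which is why a few windows are printed here. The windows are 30 bases of RefSeq sequence on the coding strand, build GRCm38.p6, written 5′ to 3′ with 15 bases on each side of the start. Capitals mark a run of at least 8 C or T that overlaps the 10 bases either side of the start. Rps18, Rps10, Rpl7a, Rpl13a and Rps27 have such a run, and Rplp0 and both listed starts of Rpl22 have none.
Rps18, chr17:33955651-33955680, minus strand: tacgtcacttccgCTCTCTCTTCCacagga
Rps10, chr17:27635230-27635259, minus strand: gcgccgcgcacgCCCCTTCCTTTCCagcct
Rpl7a, chr2:26910792-26910821, plus strand: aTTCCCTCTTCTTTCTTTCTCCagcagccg
Rpl13a, chr7:45128731-45128760, minus strand: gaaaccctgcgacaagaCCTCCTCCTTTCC
Rps27, chr3:90213634-90213663, minus strand: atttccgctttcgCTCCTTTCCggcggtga
Rplp0, chr5:115559452-115559481, plus strand: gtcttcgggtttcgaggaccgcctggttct
Rpl22, first start, chr4:152324421-152324450, plus strand: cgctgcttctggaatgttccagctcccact
Rpl22, second start, chr4:152325711-152325740, plus strand: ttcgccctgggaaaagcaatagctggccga

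RefSeq entries were used for 28 of the 35 members. Member entries on 1 chromosome were left out, while the count of other genes kept it, so the shares follow slightly different rules. A run of this kind, which need not include the start itself, was searched on the coding strand alone. It overlaps the 10 bases either side of an annotated start in 11 of the 28 (39.3%). Among other protein-coding genes it does so in 2761 of 17464 (15.8%). More than 1 start is listed for 7 of the 28 members (25%) and for 15.8% of the other genes, and each further start adds a chance of a match. A match is a description of the letters. The lack of one says only that no such run is in the window searched.

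The arrays had been scaled by the authors to a 2% trimmed mean of 500. The correlation across probe sets between replicates was 0.975 to 0.984. The ratio of 3′ to 5′ beta-actin signals, which reflects RNA quality, lay between 1.01 and 1.39. The labelled cell type was checked against markers. Of the macrophage markers, all 10 were represented, with Csf1r between 6261 and 14299 and Cd68 between 8314 and 11234. Mrc1 (3.4 to 58.4) and Fcgr3 (21.5 to 77.4) were dim, and Fcgr1, Irf8, Itgam and Adgre1 were lower with RANKL over the 4 days. The summed signal of the 10, carried by a few bright genes, ran from 47198 to 63523 on control arrays and from 29536 to 58448 on RANKL arrays. The summed signal of 7 osteoclast markers ran from 1393 to 6642 in control cells and from 6149 to 32041 in RANKL cells. The ranges meet at the day 1 arrays, where Nfatc1 was 4410.2 without RANKL and 4548.1 with it. Acp5, Ctsk, Mmp9 and Nfatc1 were higher with RANKL over the 4 days, and Calcr (1.8 to 27.2) and Itgb3 (8.4 to 78.2) were dim in both treatments. The summed markers stayed at or below 382.7 for T cells (4 genes), 373.6 for B cells (3 genes) and 1631 for stromal cells (4 genes).

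Signals of the members fell in 2 ranges with a wide gap between them. The mean log2 signal was 12.21 or higher for 20 members and 10.14 or lower for the other 15, so a division at 11, set after the signals were seen, separates them, and they are called bright and dim members below. Rpl37a (12.21) and Rps27 (10.14) lie on either side of it. A signal depends on the probes as well as on the RNA, so the 2 ranges describe probe sets and do not rank transcripts. Members made up 17 of the 100 brightest probe sets, and the probe sets that list a ribosomal protein gene with other genes made up 21 more.

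**Figure D1:**
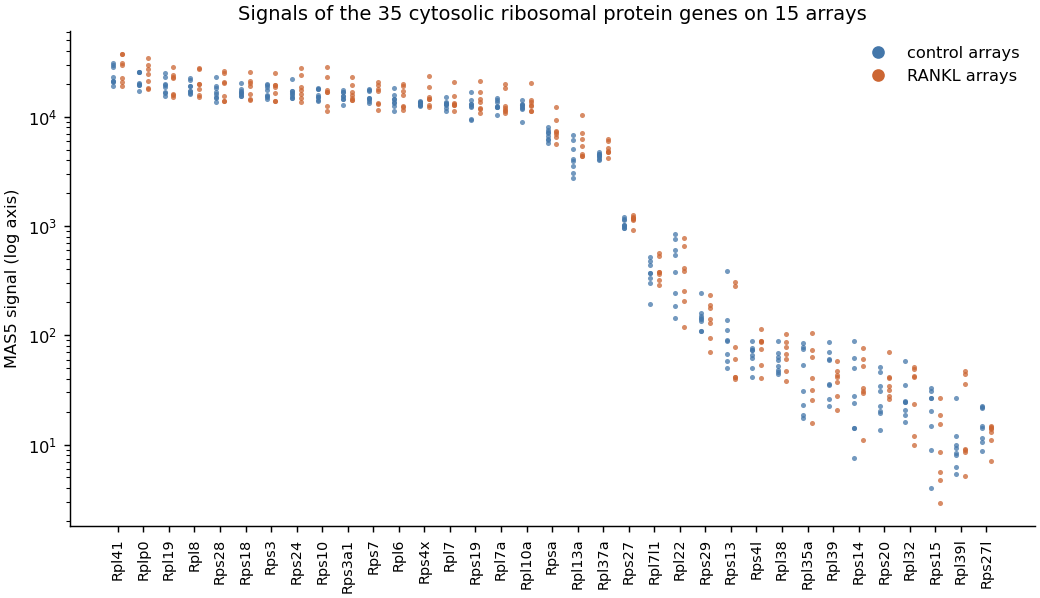
MAS5 signals (log axis) of the 35 members on the 8 control and 7 RANKL arrays, one point an array, ordered by mean log2 signal. The 20 bright members lie between 2777 and 37680, the other 15 at or below 1255, and control and RANKL points of a bright member overlap widely.

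The brightest probe sets were those of Rpl41, the smallest ribosomal protein (100213_f_at, median signal 23175), Rplp0, the base of the stalk that recruits elongation factors (101213_at, 21284), and Rpl19 (97483_at, 19581). The small-subunit proteins Rps3, at the mRNA entry channel, and Rpsa, also known as the laminin receptor, had median signals of 17703 and 7141. Rps19 and Rps24, both mutated in Diamond-Blackfan anaemia, had medians of 13063 and 16334. Rpl7 and the X-linked Rps4x had medians of 13010 and 13612.

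The dim members include genes whose proteins are present in each ribosome. Of the 15, 12 stayed under 400 on every array and 11 had a median signal under 100. Rps14 and Rps15, of the small subunit, had medians of 30.76 and 15.32, and Rpl39, a protein of the peptide exit tunnel, had 41.86. The dimmest by mean log2 signal were Rps15, Rpl39l and Rps27l (medians 15.32, 9.21 and 14.1). The last 2 are paralogs of Rpl39 and Rps27, and Rps27 itself had a median of 1138. Detection calls were not used here, so a signal in this range is not shown to be above background.

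Some probe sets of the same gene differed widely in signal. Rpl19 had medians of 19581 and 106.3, Rpl7 of 13010 and 24.45, and Rps28 of 16781, 16605 and 132.5. The 5 probe sets of Rps4x had medians from 13.26 to 13612. The 2 probe sets of Rps4l lay close together (73.92 and 71.31). For the RANKL effect, another probe set of Rpl19, Rpl7, Rps28, Rps29, Rps4x or Rpl38 had a change of the opposite sign or of 0.00 to 2 decimals. The bright Rps24 probe set (97696_r_at) shares its source sequence in the annotation with the Rpl7 probe set, so its identity is uncertain. The other Rps24 probe set had a median of 55.85.

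The bright members moved together from array to array. Each member was set against its own mean over the 15 arrays. The median deviation of the 20 bright members then ran from -0.30 on RANKL day 5 replicate 1 to 0.58 on RANKL day 2 replicate 2. The RANKL day 1 array stood at 0.33 and RANKL day 5 replicate 2 at -0.28. The control arrays lay between -0.22 and 0.16. The bright members held 2.99% to 4.75% of the total signal of an array.

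Replicates of 1 group also differed. Between the 2 RANKL day 2 arrays the bright members differed by a median of 0.69, all 20 in the same direction, from 0.29 to 0.80, which is more than the bright median of any treatment comparison given here. The median difference, replicate 2 minus replicate 1, was -0.36 for control day 2 and 0.27 for control day 3. It was -0.09 for control day 4, 0.08 for RANKL day 4 and 0.01 for RANKL day 5. Rplp0 shows the pattern. Its RANKL signal was 29726 at day 1, 21284 and 34458 at day 2, 24652 and 27108 at day 4, and 18047 and 18383 at day 5. Its control signal was 20372 at day 1, 25433 and 19749 at day 2, 19620 and 25899 at day 3, 19376 and 17139 at day 4, and 25697 at day 5. The 3 highest signals, at RANKL days 1, 2 and 4, lay above every control array, and the RANKL day 5 arrays lay near the low end of the control range. The 2 RANKL day 2 arrays lay further apart than the day 2 means.

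**Figure D2:**
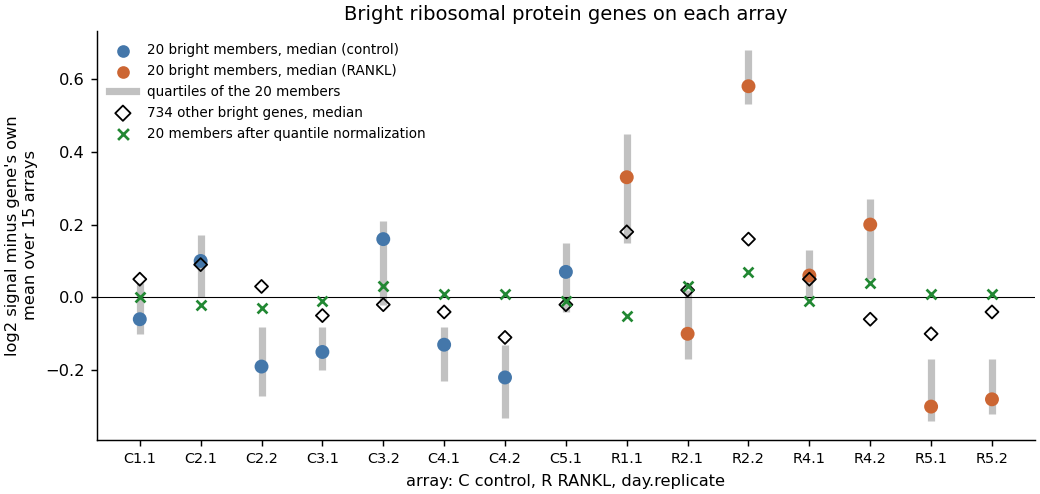
Median deviation (log2 signal minus the gene's own mean over 15 arrays) of the 20 bright members on each array, with quartiles as bars, the median of 734 other bright genes as diamonds, and the members after quantile normalization as crosses. The members range from -0.30 to 0.58, the other bright genes from -0.11 to 0.18, and the normalized members from -0.05 to 0.07.

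Other measures of the arrays varied with this. On RANKL day 2 replicate 2 the mean signal of the array was 796 and the beta-actin ratio 1.39, the highest of the 15 in both. On RANKL day 5 replicate 1 the mean signal was 678.3, the lowest. The highest signal on an array ran from 19974 (control day 4 replicate 2) to 41016 (RANKL day 1). The 99th percentile of signals ran from 8767 (RANKL day 5 replicate 2) to 12767 (RANKL day 2 replicate 2). The 734 other genes with a mean log2 signal over 11 had median deviations from -0.11 to 0.18, a narrower range than the bright members. They were set by the cut at 11 alone and not matched to the members by signal. Whether other genes of the members' level moved alike was not tested. The probe sets shared with other genes ran from -0.26 to 0.54. The part of these array measures in the member differences below was not tested. Quantile normalization, which gives every array the same distribution and so fixes the brightest signals, left median deviations of -0.05 to 0.07.

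Over the 15 arrays, pairs of bright members had a median correlation of 0.78 and a lowest of 0.12, against 0.12 (median) for pairs of dim members and 0.07 for pairs of the other bright genes. After quantile normalization it was 0.04 for the bright members. The points share arrays and their scaling, and the other bright genes were not matched to the members by signal. With the array median of the bright members removed, the remaining SD was 0.06 for Rps18 and Rps3 and 0.08 for Rplp0 and Rpl8. It was 0.44 for Rpl13a and 0.30 for Rps19, the 2 bright members that kept most variation of their own.

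The RANKL effect (RANKL cells against same-day controls) asks which genes differ between cells cultured equally long. No member passed the threshold (adjusted p under 0.05, limma, Benjamini-Hochberg over 12422 probe sets) for the mean effect over days 1, 2, 4 and 5. All 20 bright members had small positive values there, from 0.07 to 0.28 on the log2(signal + 32) scale used for every difference below, with a median of 0.16. The dim members had a median of 0.05, all probe sets 0.01 and the other bright genes 0.03. Of all probe sets 1.09% passed. An unadjusted p under 0.05 was reached by 1 member (2.86%) and by 11.1% of all probe sets. Without the control day 5 array the mean is over days 1, 2 and 4, and the bright median was 0.31. It was 0.07 without RANKL day 2 replicate 2. Without the control or the RANKL array of day 1 the mean is over days 2, 4 and 5, and the bright median was 0.10. In bulk RNA, fewer cells of a type and less RNA in each cell cannot be told apart.

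The smallest adjusted p among members was that of Rpl37a, a large-subunit protein, at 0.26 ± 0.10 (SE, adjusted p = 0.334). Its RANKL signal was 5974 at day 1, 5147 and 6302 at day 2, 4772 and 4778 at day 4, and 4191 and 4811 at day 5. Its control signal was 4362 at day 1, 4311 and 4512 at day 2, 4016 and 4716 at day 3, 4560 and 4450 at day 4, and 4113 at day 5. The RANKL arrays lay above the control arrays of their day on each of the 4 days, with the narrowest margin at day 5. Rpl13a (0.28 ± 0.13) and Rpl35a (0.25 ± 0.21) were the other largest positive values, and Rps15 (-0.27 ± 0.14), Rps13 (-0.22 ± 0.38) and Rpl39 (-0.17 ± 0.20) the most negative. The last 3 and Rpl35a are dim.

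**Figure D3:**
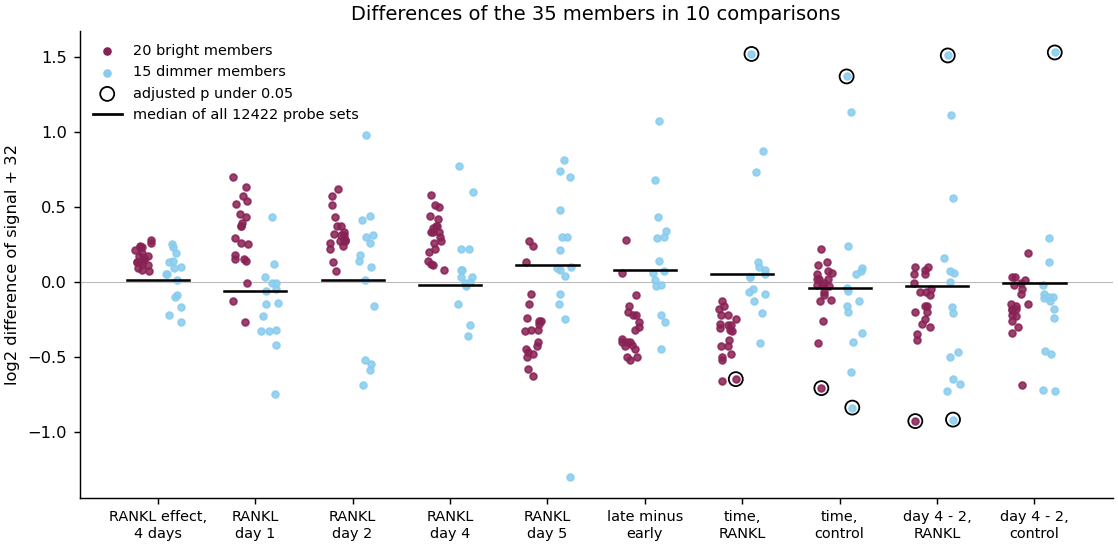
Log2 differences of the 20 bright and 15 dim members in 10 comparisons, one point a gene, with the median of all 12422 probe sets as a line and a ring for an adjusted p under 0.05. Bright members lie above 0 at days 2 and 4 and mostly below it at day 5, and rings occur only in the comparisons of days.

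The daily effects of RANKL differed in sign, and none passed for any member. The bright members moved together from array to array, so counts of their signs are not counts of separate observations. At day 1, with 1 array on each side, the bright median was 0.33 with 17 of 20 positive. No probe set passed (0% called), and 728 probe sets (5.86%), 0 of them members, had an unadjusted p under 0.05. At day 2 the bright median was 0.30 with 20 of 20 positive. At that day 0.853% of probe sets passed, and 4 members (11.4%) had an unadjusted p under 0.05, near the 10.1% of all probe sets. At day 4 the bright median was 0.33, again with 20 of 20 positive. Of all probe sets 0.266% passed, and no member had an unadjusted p under 0.05, against 8.13% of all probe sets. At day 5 the bright median was -0.32 with 17 of 20 negative. Of all probe sets 0.918% passed, and 2 members (5.71%) had an unadjusted p under 0.05, against 14.2% of all probe sets. The probe sets shared with other genes had medians of 0.12, 0.29, 0.18 and -0.10 on the 4 days.

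At day 2 the values depend on single arrays. Without RANKL day 2 replicate 2 the bright median at day 2 was -0.03 with 6 of 20 positive. Omitting the second control array of day 2 gave 0.13 and omitting the first gave 0.45. Omitting the first RANKL array of day 2 gave 0.64. Without RANKL day 2 replicate 2 and the RANKL day 1 array the RANKL effect covers days 2, 4 and 5 only. Its bright median was then -0.02 with 7 of 20 positive. After quantile normalization the bright medians were -0.07, 0.06, 0.03 and 0.04 on days 1, 2, 4 and 5. At day 5 the median thus had the other sign.

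At day 4 the separation was complete for most bright members, though no adjusted p was under 0.05. Both RANKL arrays lay above both control arrays for 22 members, 19 of them bright, against 17.5% of all probe sets and 27.9% of the other bright genes. They lay below for 1 member, against 19.8%. At day 2 the RANKL arrays were above for 9 members (18.8% of all probe sets) and below for 4 (19.2%). At day 5 both RANKL arrays lay below the only control array for 20 members, 17 of them bright, against 26.9% of all probe sets and 46.7% of the other bright genes. They lay above for 13 members, against 49.2%. After quantile normalization 4 bright members were above and 2 below at day 4, and 9 were above and 4 below at day 5.

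For Rplp0 the day 4 difference was 0.50 ± 0.27 and the day 5 difference -0.50 ± 0.34. Rpl41 had 0.58 ± 0.29 and -0.63 ± 0.36, and Rpl19, whose long helix bridges the subunits, had 0.44 ± 0.28 and -0.58 ± 0.34. In the small subunit Rps3 had 0.37 ± 0.25 and -0.43 ± 0.30, and Rpsa had 0.22 ± 0.25 and -0.26 ± 0.30. Rps4x had 0.33 ± 0.25 and -0.08 ± 0.30. Rps19, Rpl13a and Rpl37a were the 3 bright members with positive values at day 5 (0.27 ± 0.30, 0.24 ± 0.28 and 0.13 ± 0.21).

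The late minus early RANKL effect sets the mean effect of days 4 and 5 against that of days 1 and 2. It asks whether the difference between RANKL and control cells changed between the mononuclear and multi-nuclear days. No member passed, against 0.0403% of all probe sets. An unadjusted p under 0.05 was reached by 1 member (2.86%), against 8.03% of all probe sets. The bright median was -0.35 with 18 of 20 negative, against -0.09 for the other bright genes and 0.08 for all probe sets. It hinges on single arrays. Without the only control day 5 array, which leaves day 4 alone as late, it was 0.05 with 12 of 20 positive. Omitting the second RANKL array of day 2 gave -0.20 and omitting the first gave -0.53. With the RANKL day 1 array and RANKL day 2 replicate 2 left out, only day 2 stood as early, and the bright median was 0.02. Rpl35a, a large-subunit protein mutated in Diamond-Blackfan anaemia, had the smallest adjusted p (1.07 ± 0.42, adjusted p = 0.571), at signals of 15.6 to 104.8.

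Culture time asks what changed between days 1 and 2 and days 4 and 5 within 1 treatment. In RANKL cells 1 member rose, Rpl22, against 8.98% of all probe sets, and 1 fell, Rpl13a, against 5.82% (14.8% in either direction). In control cells 1 member rose, again Rpl22, against 5.98%. There 2 fell, Rpl7l1 and Rpl13a, against 4.87% (10.9% in either direction). The RANKL and control arrays are separate samples, so these are 2 sets of arrays that share only the estimate of spread. No other member passed. An unadjusted p under 0.05 was reached by 9 members (25.7%) in RANKL cells, against 27.9% of all probe sets, and by 3 (8.57%) in control cells, against 24.0%.

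Rpl22 is a large-subunit protein that also binds RNA outside the ribosome and is needed for T cell development. Its probe set 92857_at gave 118.1 at day 1 in RANKL cells, 256.2 and 205.5 at day 2, 783.1 and 649.6 at day 4, and 416.1 and 385 at day 5. In control cells it gave 143.8 at day 1, 183.6 and 243.8 at day 2, 540.5 and 850.5 at day 3, 599.3 and 757.5 at day 4, and 376.1 at day 5. Every array of days 3 to 5 lay above every array of days 1 and 2, and day 5 lay below day 4 in both treatments.

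The rise was 1.52 ± 0.20 in RANKL cells (2.86-fold, adjusted p = 0.000983) and 1.37 ± 0.22 in control cells (2.59-fold, adjusted p = 0.00359). The RANKL effect over 4 days was 0.01 ± 0.15. In RANKL cells the call was lost without the RANKL day 1 array and RANKL day 2 replicate 2 together (0.98, adjusted p = 0.106), and in control cells with the beta-actin ratio as a covariate (1.16, adjusted p = 0.0963). The other Rpl22 probe set, 92856_at, with a median signal of 187.3 against 385, did not show it. It gave 0.36 ± 0.25 in RANKL cells and -0.25 ± 0.28 in control cells (adjusted p = 0.423 and 0.68). The 2 probe sets thus disagree on this gene.

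Rpl13a is a large-subunit protein that interferon-gamma releases from the ribosome in myeloid cells to silence inflammatory mRNAs. Its control signal was 6857 at day 1, 6180 and 5020 at day 2, 3557 and 2777 at day 3, 3910 and 3048 at day 4, and 4098 at day 5. Its RANKL signal was 6277 at day 1, 7146 and 10266 at day 2, 4362 and 4593 at day 4, and 4399 and 5360 at day 5. In both treatments each array of days 4 and 5 lay below the day 1 array, and the control arrays of day 3 were as low as those of day 4.

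**Figure D4:**
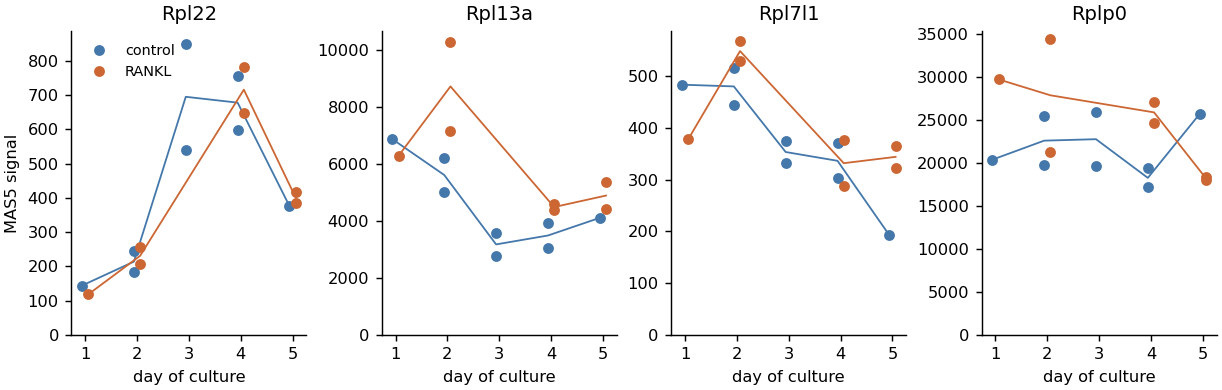
MAS5 signals of Rpl22, Rpl13a, Rpl7l1 and Rplp0 by day of culture, one point an array, lines joining group means (RANKL has no point at day 3). Rpl22 climbs from 118.1 to 256.2 at days 1 and 2 to 599.3 to 783.1 at day 4 in both treatments, and Rplp0 has no such course.

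Rpl13a fell by 0.65 in RANKL cells (SE 0.18, adjusted p = 0.0314) and by 0.71 in control cells (SE 0.20, adjusted p = 0.0395), both close to the threshold. In RANKL cells the call was lost in 9 of 25 alternatives, among them quantile normalization (-0.42, adjusted p = 0.0835). Single arrays whose loss ended it were RANKL day 2 replicate 2 (-0.52), day 4 replicate 1 (-0.63), day 4 replicate 2 (-0.67) and day 5 replicate 1 (-0.58). In control cells it was also lost in 9 of 25. The single arrays were control day 1 (-0.56), day 2 replicate 1 (-0.64), day 2 replicate 2 (-0.79), day 3 replicate 2 (-0.71) and day 4 replicate 2 (-0.62). With the replicate number as a block the values were -0.64 and -0.71 (adjusted p = 0.0522 and 0.0572). The direction stayed negative in all 25 alternatives for both treatments.

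Rpl7l1 is a paralog of Rpl7. Its control signal was 483.3 at day 1, 516.3 and 443.6 at day 2, 332.8 and 373.5 at day 3, 370 and 302.3 at day 4, and 192.3 at day 5. Its RANKL signal was 377.7 at day 1, 528.7 and 567.8 at day 2, 287.2 and 375.9 at day 4, and 321.9 and 365.7 at day 5. Each later control array lay below each early one. In RANKL cells the day 1 array lay near the later ones.

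Rpl7l1 fell by 0.84 in control cells (SE 0.18, adjusted p = 0.0127). Without the control day 5 array the value was -0.48 (adjusted p = 0.158), and with the beta-actin ratio as a covariate it was -0.82 (adjusted p = 0.156). In RANKL cells the value was -0.41 ± 0.16 (adjusted p = 0.123). Its RANKL effect at day 5, 0.74 ± 0.25 (adjusted p = 0.206), had the smallest adjusted p of any member on that day and rests on the same control array. Rpl7 itself, at 13010, gave -0.18 ± 0.20 and -0.02 ± 0.22. Its second probe set, 97697_at, gave 0.59 ± 0.18 in RANKL cells (adjusted p = 0.0466) at a median signal of 24.45.

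The culture time values of the bright members depended on which arrays were included. The bright median was -0.31 in RANKL cells, with 20 of 20 negative between -0.66 and -0.13, against -0.19 for the other bright genes and 0.05 for all probe sets. In control cells it was -0.01, with 11 of 20 negative. Without the control day 5 array the control value was -0.19 with 2 of 20 positive, nearer to the RANKL value, and leaving out any other control array gave -0.07 to 0.06. The late minus early RANKL effect above is the difference between them. The RANKL value was 0.01 without the RANKL day 1 array and RANKL day 2 replicate 2. Omitting the second RANKL array of day 2 alone gave -0.15, and omitting the first gave -0.48. It was 0.05 after quantile normalization. Rps10, a small-subunit protein near the mRNA entry site, had the most negative value, -0.66 ± 0.21 (adjusted p = 0.0528). It passed in 4 of 25 alternatives, among them the fit without RANKL day 2 replicate 1 (-0.85, adjusted p = 0.00787). Rpl7a gave -0.52 ± 0.20 (adjusted p = 0.103).

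The dim members named for size did not pass. Rps13 gave 0.87 ± 0.52 in RANKL cells and 1.13 ± 0.57 in control cells. The control value rests on 386.3 at day 5 beside 50.1 to 138.5 on the other control arrays, and in RANKL cells the replicates of day 4 gave 308.6 and 41.3. Rpl35a gave 0.73 ± 0.28 and -0.34 ± 0.31, Rpl39 0.08 ± 0.26 and -0.60 ± 0.29, and Rps27 -0.13 ± 0.13 and 0.09 ± 0.14. Rps27l, a p53 target, gave 0.03 ± 0.14 and 0.05 ± 0.16.

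Day 4 minus day 2, both with 2 arrays, compares multi-nuclear with mononuclear RANKL cells and has the same days without RANKL beside it. These contrasts use arrays of the culture time comparison and are not independent of it. In RANKL cells 1 member rose, Rpl22 (1.51 ± 0.25, adjusted p = 0.00329), against 7.08% of all probe sets. There 2 fell, against 5.45% (12.5% in either direction). Rpl13a fell by 0.93 (SE 0.23, adjusted p = 0.0206) and Rpl39l by 0.92 (SE 0.21, adjusted p = 0.0147). In control cells Rpl22 rose by 1.53 (SE 0.25, adjusted p = 0.0098), against 2.58%. No member fell, against 1.88% (4.47% in either direction), and 3 members (8.57%) had an unadjusted p under 0.05, against 17.7% of all probe sets.

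Leaving out 1 array ended several of these calls. For Rpl22 in control cells these were control day 2 replicate 1 (1.36, adjusted p = 0.116) and day 4 replicate 2 (1.37, adjusted p = 0.101). In RANKL cells Rpl22 passed in all 25 alternatives. Rpl13a lost the call without RANKL day 2 replicate 2 (-0.67), day 4 replicate 1 (-0.89) or day 4 replicate 2 (-0.97). Rpl39l lost it without the same arrays (-0.90, -0.91 and -0.94).

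Rpl39l, a paralog of Rpl39 known from the testis, gave 44.2 and 46.9 on the 2 RANKL day 2 arrays. It gave 35.9 and 9 at RANKL day 5, 26.6 at control day 5, and 5.2 to 12 on each of the other 10 arrays. Its RANKL effect at day 2 was 0.98 ± 0.21 (adjusted p = 0.0608), the smallest adjusted p of any member for RANKL. It passed without RANKL day 5 replicate 1 or without RANKL day 5 replicate 2, with 1 member then past the threshold at day 2. All its signals are among the lowest of the set.

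In lists of mitochondrial ribosomal proteins and of nucleolar assembly, made with earlier results of these data known, some genes fell with culture time in both treatments and most did not pass. Of all probe sets 5.82% fell in RANKL cells and 4.87% in control cells. The difference between the lists and the members was not tested. Of 61 mitochondrial ribosomal protein genes, which serve the separate ribosome of mitochondria, 23 fell and 0 rose in RANKL cells (median -0.52), and 16 fell and 0 rose in control cells (median -0.54). Mrpl11 fell by 1.27 in RANKL cells and 1.05 in control cells, Mrpl20 by 1.13 and 1.25, and Mrpl12 by 0.96 and 1.43. From day 2 to day 4, 29 fell in RANKL cells (median -0.70) and 4 in control cells (median -0.40). Of all probe sets 5.45% fell in RANKL cells and 1.88% in control cells between these days.

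Of 49 genes for nucleolar ribosome assembly, 18 fell and 2 rose in RANKL cells (median -0.18), and 21 fell and 1 rose in control cells (median -0.41). From day 2 to day 4, 16 fell and 1 rose in RANKL cells (median -0.30), against 5.45% and 7.08% of all probe sets. In control cells 7 fell and 0 rose (median -0.47), against 1.88% and 2.58%. Nip7, a factor of large-subunit assembly, fell by 1.32 (SE 0.21) and 1.09. Eif6, which keeps new large subunits from joining too early, fell by 1.17 and 1.07. Nop2, an rRNA methyltransferase, fell by 0.76 and 1.14.

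These counts also depend on single arrays. Without the RANKL day 1 array and RANKL day 2 replicate 2, 2 mitochondrial and 2 nucleolar genes fell in RANKL cells, with medians of -0.45 and -0.27. With the beta-actin ratio as a covariate, 2 and 6 fell in control cells. Without the control day 1 array, 8 and 8 fell there, and 10 mitochondrial genes fell without control day 2 replicate 1 or day 4 replicate 2. For RANKL day 4 minus day 2, 7 and 8 fell when RANKL day 2 replicate 2 was omitted. With RANKL day 4 replicate 2 omitted instead, 15 and 9 fell. For control day 4 minus day 2, 0 of either list fell without control day 2 replicate 1 or day 4 replicate 2. Without control day 2 replicate 2 fewer genes of each list passed, though the mitochondrial and nucleolar medians were -0.56 and -0.58, against -0.40 and -0.47 as reported. Omitting a day 3 array, which is not in this contrast, left the medians as reported and also gave fewer calls. Without day 4 replicate 1 there were fewer calls as well, with medians of -0.51 and -0.39. The counts thus dropped also where the medians did not shrink. No mitochondrial ribosomal protein gene rose under any alternative in either treatment, and their median in RANKL cells stayed between -0.60 and -0.34. The nucleolar median in RANKL cells ran from -0.33 to 0.00, the last with the bright-gene offset, an alternative added after seeing the data that shifts each array so that the other bright genes have a median deviation of 0. Between 0 and 3 nucleolar genes rose there.

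**Figure D5:**
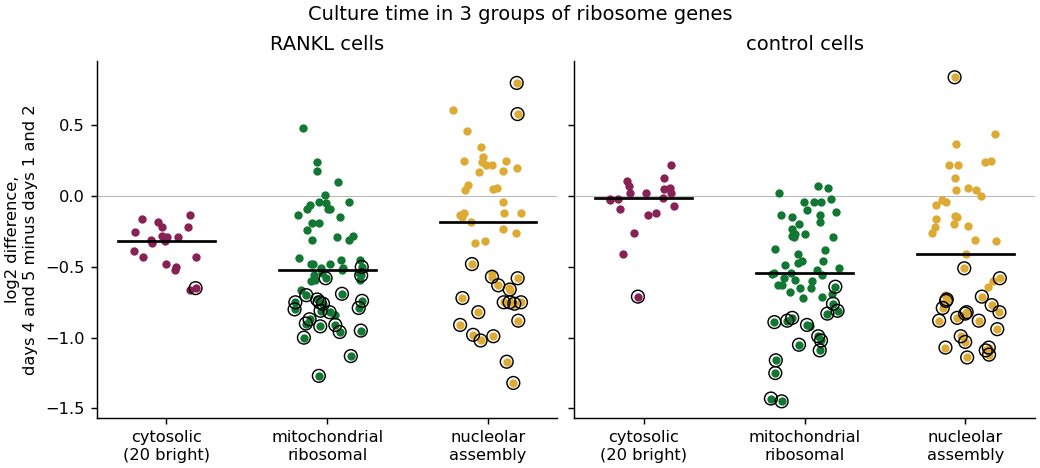
Log2 difference between days 4 and 5 and days 1 and 2 in RANKL cells (left) and control cells (right), one point a gene, with medians as lines and rings for an adjusted p under 0.05. The 20 bright cytosolic members have medians of -0.31 and -0.01, the 61 mitochondrial genes of -0.52 and -0.54, and the 49 nucleolar genes of -0.18 and -0.41.

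Translation factors and regulators were mixed. Of all probe sets 8.98% rose and 5.82% fell in RANKL cells, and 5.98% rose and 4.87% fell in control cells. Of 29 initiation factors, 5 rose and 5 fell in RANKL cells, and 2 rose and 2 fell in control cells, the latter near the shares of all probe sets. Eif4g3 rose by 1.35 in RANKL cells and 0.97 in control cells. Of 9 elongation and release factors, 1 fell in each treatment, Eef1d (-0.72 and -0.77). Of 18 genes of the mTOR and S6 kinase pathway, Ddit4, an inhibitor of mTOR, rose in both treatments (1.27 and 1.83). Mtor fell by 0.63 in RANKL cells, and Rragc rose by 0.71 in control cells.

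The Myc network had 10 genes represented. Myc, which drives ribosome production in growing cells, was higher with RANKL over the 4 days (1.67, adjusted p = 0.0255). It fell by 2.19 with time in control cells. Mycn rose with time in both treatments (2.03 and 2.44), with 4 genes rising and 0 falling in RANKL cells, and 2 rising and 1 falling in control cells. Of 10 genes of ribosome surveillance, 2 rose in RANKL cells and 1 in control cells, Mdm4 among them in both (1.41 and 1.16). Of 10 genes for escort and assembly helpers, 2 rose and 1 fell in RANKL cells, and 1 rose and 1 fell in control cells. Grwd1, a chaperone of a large-subunit protein, was the one that fell, by 1.09 and 1.65.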

How the data were processed

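Biotin-labelled RNA of each sample was hybridised to 1 array. The authors deposited probe set signals as linear intensity values made with MAS5, per the submitters' processing notes. Its version is not given in the sources used here. The 2% trimmed mean was 500 on each array, and no further normalization was applied. Of 12488 probe sets, 66 manufacturer controls were left out. Of the 12422 tested, the annotation of the platform lists 1 gene for 10833, several for 396 and none for 1193. The deposited intensity was taken as log2(signal + 32), with no filter on dim probe sets. limma 3.58.1 in R 4.3.3 fitted 1 mean for each of 9 groups (eBayes with an intensity trend, 6 residual and 5.385 prior degrees of freedom). For 3 groups with a single array, the spread of the other groups is assumed. Two-sided tests had Benjamini-Hochberg adjustment over all probe sets within each of 10 comparisons, at 0.05. SEs are limma's. The procedure was tested on simulated data with independent noise for each probe set and array. Those data held no shift shared by the genes of an array, so they do not cover the joint movement of the bright members.

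The members, the gene lists and the tests were chosen with earlier results of these data known. Named are members past the threshold, the 3 largest changes each way for the 4-day RANKL effect and for culture time, the 3 highest and 3 lowest by signal, 16 members of a panel of 30 genes by role, members whose probe sets differ in sign, and up to 3 called genes of each other list. Whether replicate numbers pair the arrays is not in the labels. Over 15 pairs of groups the correlation of replicate differences ran from -0.17 to 0.12, and was over 0.1 in 1. Low correlations show no shared difference by replicate number but cannot show that the arrays were unpaired. Alternatives tried were quantile normalization, no intensity trend, pseudocounts of 1 and 100, the upper 50% of probe sets, the replicate block, the beta-actin ratio as a covariate, other probe set rules, other days, and each array left out. Added after seeing the data were an offset that sets the median of 734 other bright genes to 0 on each array, a fit without the 2 arrays with the brightest signals (RANKL day 1, and RANKL day 2 replicate 2), the day 5 minus day 4 RANKL effect, and the division into bright and dim members.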

Additional observations from a re-analysis of the deposited data

Results flagged for a closer look

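For 16 members both RANKL arrays lay above both control arrays at day 4 and below the only control array at day 5. They are Rpl41, Rplp0, Rpl19, Rpl8, Rpl6, Rpl7, Rpl10a, Rps28, Rps18, Rps24, Rps3, Rps10, Rps3a1, Rps7, Rps4x and Rpsa, and all are bright. The Rps24 probe set shares its source sequence with that of Rpl7, so these may not be separate genes. The same order held for 543 of 12422 probe sets (4.37%) and for 73 of 734 other bright genes (9.95%). For 1 member, Rps29, the order was the opposite, as for 1043 probe sets (8.40%). The order itself was not tested, and bright members moved together from array to array, so the 16 are not separate observations. The RANKL effect at day 5 minus that at day 4, added after the data were seen, had a bright median of -0.60 (18 of 20 negative, -1.21 to 0.04), against -0.14 for the other bright genes and 0.11 for all probe sets. No member passed in limma (lowest adjusted p 0.434), and 1 of 12422 probe sets passed. An unadjusted p under 0.05 was reached by 5 members (14.3%) and by 1230 probe sets (9.90%). After quantile normalization the bright medians of days 4 and 5 were 0.03 and 0.04.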

How the results depend on the processing

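No member passed for the RANKL effect over 4 days, at days 1, 4 or 5, or late minus early under any alternative run. At day 2, 0 members passed as reported and 0 to 1 with 1 array left out. For culture time in RANKL cells 2 members passed as reported. There were 5 in the upper 50% of probe sets, 1 with the beta-actin ratio as a covariate, 4 without both day 1 arrays, 1 with the bright-gene offset, 0 without the 2 brightest arrays, and 1 to 6 with 1 array left out. In control cells 3 passed, and 0 with the beta-actin covariate. Only Rpl22 and Rpl7l1 passed there without the intensity trend or with the replicate block. Rpl13a and Rpl7l1 also lost the call with single arrays left out, as given above. For RANKL day 4 minus day 2, 3 passed, 1 without the 2 brightest arrays, and 1 to 4 with 1 array left out. For control day 4 minus day 2, 1 passed, and 0 to 1 with 1 array left out. With the replicate block 0 members passed for the 4-day RANKL effect (member median 0.12 against 0.13), and 2 for culture time in RANKL cells. No named change that passed turned its sign. Over all probe sets, culture time in RANKL cells gave 1839 calls and 231 without the 2 brightest arrays, the 4-day RANKL effect 136 and 292, and the day 2 effect 106 and 3. Without the RANKL day 1 array the RANKL effect is a mean over days 2, 4 and 5, and the early RANKL cells are those of day 2 alone. The causes of the changes in calls were not tested. The number of arrays limits the precision: 3 of the 9 groups have 1 array, and the member median varied by 0.188 (SD) between replicates.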
